A study of Homo sapiens with 9 samples.

Results

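The genes described here were the 120 of 20030 genes in the deposited tables whose KEGG pathway annotation held the term oxidative phosphorylation. Their RNA was read in MHCC97L, a human hepatocellular carcinoma (HCC) cell line, and in lines made resistant from it, MHCC97L-Src and MHCC97L-Oxa. MHCC97L was left untreated, MHCC97L-Src had been grown in rising amounts of saracatinib, an inhibitor of the SRC kinase, until stably resistant at 4 μmol/L, and MHCC97L-Oxa was stably resistant to 2 μmol/L oxaliplatin, a platinum drug that binds DNA. All lines were kept in the same serum-supplemented medium, and each resistant line was 1 derivative of 1 parental line, so that its features cannot be told apart from those of the cells that survived selection. The labels give saracatinib and oxaliplatin as the treatments of the resistant libraries. The sources used do not say whether drug was present when RNA was taken, so a direct drug effect cannot be told apart from stable resistance. Each line had 3 libraries of poly(A) selected RNA, 9 in all, and the study compared each resistant line with MHCC97L. The study's text speaks of independent experiments, but the labels name no separate cultures, so the p-values measure the spread between these libraries.

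Oxidative phosphorylation is the process by which mitochondria pass electrons from NADH and succinate through complexes I to IV to oxygen, pump protons across the inner membrane, and let complex V (ATP synthase) make ATP from the returning protons. Most subunits are encoded in the nucleus and imported, and their genes are known targets of the transcription factors NRF1, GABPA of the ETS family, and YY1. Liver cells are rich in mitochondria, and liver tumors are known to shift part of their ATP supply to glycolysis. The KEGG term also takes in the V-ATPase, a proton pump that acidifies lysosomes and is built like ATP synthase, as well as H+/K+ pumps and pyrophosphatases.

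By symbol, the 120 genes comprised 40 of complex I, 4 of complex II, 10 of complex III, 21 of complex IV, 15 of complex V, 24 of the V-ATPase, 3 H+/K+ pump subunits and 3 pyrophosphatases. The complex IV class holds every COX symbol and so includes the assembly factors COX10, COX11, COX15 and COX17 as well as subunits. Of the 40 complex I genes, 7 were nuclear genes of the catalytic core and 33 were classed by symbol as supernumerary. These 33 include NDUFA4, now known as a subunit of complex IV, its relative NDUFA4L2 and the readthrough gene NDUFC2-KCTD14. Mitochondrially encoded genes were 0 of the 120 and were not analysed here, so every complex except complex II is described without part of its core. Of the 120 genes, 108 had enough counts to be tested in at least 1 comparison and 12 in none.

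The promoters of these genes were examined for the core letters of the 3 regulators named above, since the data compare the genes as a set. RefSeq promoters of GRCh38.p14, which span 250 bases before to 50 bases after a start site, were found for 95 of the 120 genes, with 119 promoters in all. On either strand, the NRF1 letters GCATGCGC occurred in 15.1% of these promoters against 3.05% of all 35116 promoters. The ETS letters CCGGAAG occurred in 22.7% against 10.3%, and the YY1 letters AAGATGG in 16.8% against 5.84%. The matches lay mainly in complexes I to V, where 28.4% of promoters held the ETS letters and 22.7% the YY1 letters, while among the 31 promoters of the other genes 6.45% held the ETS letters and 0 held the YY1 letters. All 3 sets of letters were found for 3 genes, SDHB, ATP5ME and ATP5PF, and 49 of the 95 genes held none of them. A match is a description of letters and not a binding site. The 4 promoters printed here, read 5′ to 3′ from 250 bases before to 30 bases after the start, show a gene with all 3 sets of letters (SDHB), the complex IV gene with the most counts (COX6A1, with the NRF1 letters on both strands), and the members with the most positive and most negative log2 fold change in MHCC97L-Src against MHCC97L (NDUFA4L2 and ATP6V0A4), in which none of the letters occurred. Capitals mark the matches. The SDHB window is chr1:17054003-17054282 on the minus strand, and that of COX6A1 is chr12:120437863-120438142 on the plus strand. The NDUFA4L2 window, at the inner of its 2 listed starts, is chr12:57240715-57240994 on the minus strand. The ATP6V0A4 window, at the outermost of its 2 listed starts, is chr7:138798167-138798446 on the minus strand.
SDHB: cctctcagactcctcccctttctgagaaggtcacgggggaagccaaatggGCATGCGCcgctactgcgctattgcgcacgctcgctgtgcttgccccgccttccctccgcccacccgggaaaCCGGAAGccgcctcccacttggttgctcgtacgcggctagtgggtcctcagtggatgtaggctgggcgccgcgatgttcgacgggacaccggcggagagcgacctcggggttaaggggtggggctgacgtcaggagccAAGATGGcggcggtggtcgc
COX6A1: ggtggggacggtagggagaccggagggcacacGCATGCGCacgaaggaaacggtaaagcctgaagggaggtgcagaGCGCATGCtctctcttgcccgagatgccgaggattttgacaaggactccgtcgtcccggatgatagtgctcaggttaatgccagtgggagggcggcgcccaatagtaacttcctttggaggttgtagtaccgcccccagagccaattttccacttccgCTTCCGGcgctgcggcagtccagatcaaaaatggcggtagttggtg
NDUFA4L2: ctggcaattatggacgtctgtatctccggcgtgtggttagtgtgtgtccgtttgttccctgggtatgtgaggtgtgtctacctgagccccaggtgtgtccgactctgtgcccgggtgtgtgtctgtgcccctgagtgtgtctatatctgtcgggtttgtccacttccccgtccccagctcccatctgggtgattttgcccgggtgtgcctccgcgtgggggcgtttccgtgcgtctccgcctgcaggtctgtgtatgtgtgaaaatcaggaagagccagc
ATP6V0A4: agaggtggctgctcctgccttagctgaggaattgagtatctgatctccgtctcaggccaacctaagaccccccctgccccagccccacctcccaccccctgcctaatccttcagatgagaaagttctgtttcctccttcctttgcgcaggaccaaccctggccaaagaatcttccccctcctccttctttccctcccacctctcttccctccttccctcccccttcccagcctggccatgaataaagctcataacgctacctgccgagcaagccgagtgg
In SDHB the NRF1, ETS and YY1 matches began at bases -200, -128 and 11 relative to the start, and in COX6A1 the NRF1 matches began at -218 and -174 and the ETS match at -16.

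The counts of a library summed to 16970486 to 18209213 reads, and a floor of 3 counts, equal to 0.165 to 0.177 counts scaled to library size (CPM), was taken as the least detectable amount. CPM values were scaled to effective library sizes by the TMM method over the 9 libraries. MHCC97L replicate 1 stood apart from its group: of all 12214 genes compared, 25.9% had at least 2 times the CPM of both other MHCC97L libraries, and this excess ran with low GC content (Spearman rho -0.783 across 12109 genes, which are not independent and share the same libraries). The median standard deviation of log2 CPM between libraries over all genes was 0.532 (MHCC97L), 0.274 (MHCC97L-Src) and 0.146 (MHCC97L-Oxa), and over the 108 members 0.495, 0.272 and 0.081 in that order. The labelled liver cell type was not borne out by hepatocyte markers, since ALB, AFP, TTR, APOA2, APOB, FGB and CYP3A4 were at or under the floor in every library and all 12 markers summed to 0.395 to 2.91 CPM. The 5 epithelial markers summed to 2940 to 7160 CPM, but EPCAM was at or under the floor in every library. In MHCC97L-Oxa 2 of the 5 were at or under the floor. Only 2 of the 5, the keratins KRT8 and KRT18, had enough counts to be tested between the resistant lines. Fibroblast markers summed to 79.0 to 176 CPM.

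**Figure D1:**
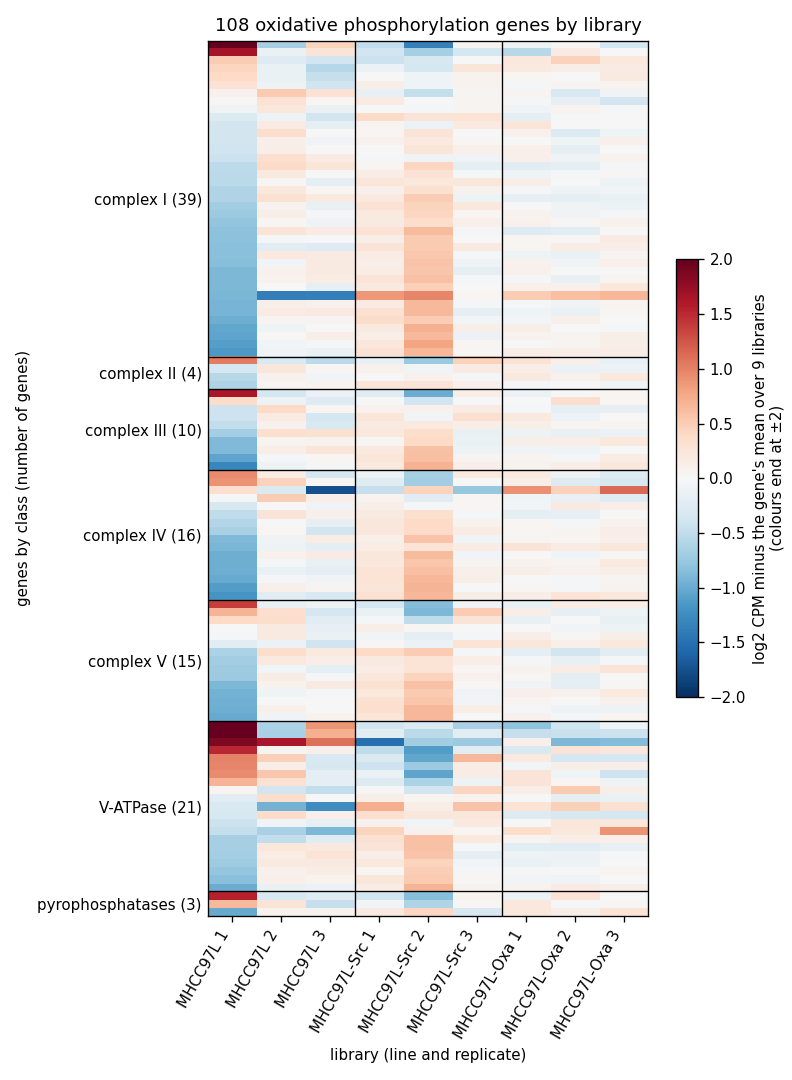
Each row is 1 of 108 oxidative phosphorylation genes, grouped by class, and each column 1 library; colour gives log2 CPM minus the gene's mean over the 9 libraries, with colours ending at ±2. The first column, MHCC97L replicate 1, departs in both directions from the other 8 columns, and the 3 MHCC97L-Oxa columns are close to each other.

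Transcripts of complexes IV and V were the most abundant of the set. On the scale of FPKM, the authors' values per transcript length and library size, the median over genes in MHCC97L was 188 for 15 complex V genes, 131 for 16 complex IV genes, 89.0 for 39 complex I genes, 86.9 for 10 complex III genes and 72.8 for the 4 complex II genes. The V-ATPase median of 13.3 FPKM was lower, although its proteolipid gene ATP6V0C, which forms the proton-carrying ring, reached 462 ± 90.1 FPKM (SD, n = 3). The highest single genes were NDUFS6, a zinc-binding accessory subunit of complex I, at 1094 ± 264 FPKM in MHCC97L, COX6A1, a nuclear subunit of complex IV, at 1350 ± 168 FPKM in MHCC97L-Src, and COX7C, a small complex IV subunit, at 1308 ± 37.9 FPKM in MHCC97L-Oxa. ATP5F1E, the epsilon subunit of ATP synthase, stood at 1049 ± 13.4 FPKM in MHCC97L-Src and 1102 ± 93.0 FPKM in MHCC97L-Oxa. These levels describe the lines and carry no test between genes.

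The set holds several pairs of a widely expressed gene and a tissue-restricted form, and the restricted form was at or near 0 in most pairs. COX6A2 and COX7A1, the heart and muscle forms, were at 0 counts in all 9 libraries, as were COX7B2 and COX8C, known from testis. Their widely expressed partners COX6A1 (291 to 933 CPM), COX7A2 (86.8 to 258 CPM), COX7B (191 to 271 CPM) and COX8A (78.4 to 215 CPM) were detected in every library. COX4I2, the form of subunit 4 known from lung, had at most 2 counts, against 226 to 655 CPM for COX4I1. In the V-ATPase, ATP6V1G3 was at 0 counts, ATP6V0D2 had at most 1 and ATP6V1B1, the kidney form of the B subunit, at most 9. ATP12A, ATP4A and ATP4B, the H+/K+ pump subunits known from colon and stomach, were at 0 counts, as was the readthrough gene NDUFC2-KCTD14. The authors' FPKM values differ for NDUFC2-KCTD14, with line means of 8.98 to 13.95 FPKM. Its 0 counts thus do not show that its transcript was absent. A count of 0 in a library allows up to the floor of 3 counts. Reads of the readthrough gene and NDUFC2, or of UQCRH and its intronless copy UQCRHL, could be split by the counting, so the values of these genes are uncertain.

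Together the 120 genes took between 1.39% and 1.99% of counted reads. Their share was 1.39%, 1.78% and 1.79% in the wild-type libraries, 1.88%, 1.99% and 1.84% in MHCC97L-Src, while MHCC97L-Oxa had 1.74%, 1.73% and 1.79%. All 3 MHCC97L-Src libraries thus lay above all 6 others, and MHCC97L replicate 1 lay lowest. For complex IV the share was 0.214%, 0.310% and 0.312% in the wild-type libraries, 0.368%, 0.408% and 0.352% in MHCC97L-Src, while MHCC97L-Oxa had 0.334%, 0.340% and 0.350%, so that the 3 groups did not overlap. For the V-ATPase it was 0.168%, 0.187% and 0.191% in the wild-type libraries, 0.188%, 0.198% and 0.183% in MHCC97L-Src, while MHCC97L-Oxa had 0.162%, 0.163% and 0.165%, where MHCC97L-Oxa lay below both other lines. These shares are not corrected for library composition and carry no test, and with bulk RNA fewer cells with a transcript and less transcript per cell cannot be told apart.

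**Figure D2:**
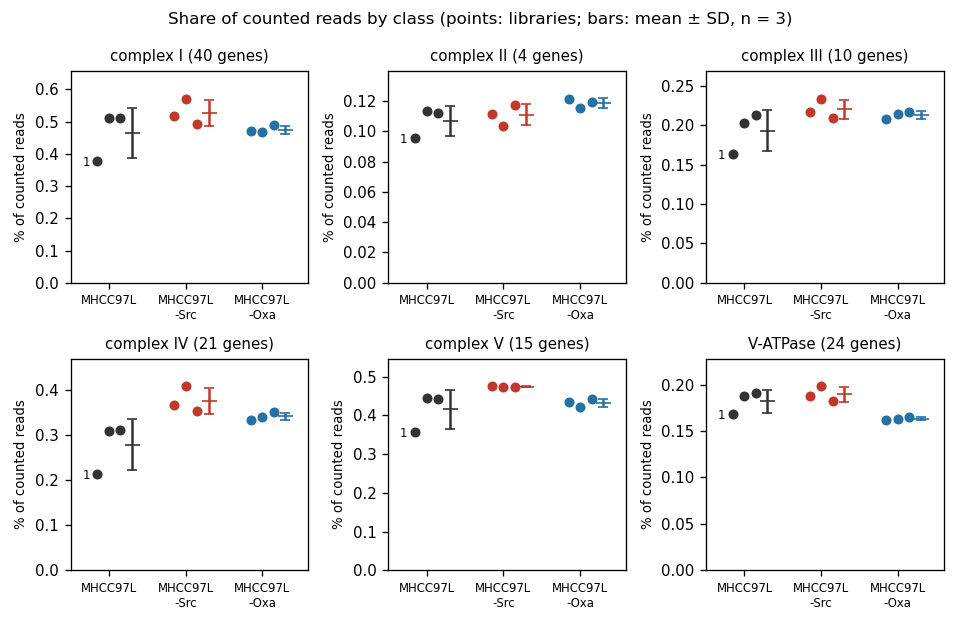
Percent of counted reads taken by each of 6 classes (y axes, from 0) in the 3 libraries of each line (points, replicate 1 to 3 from left; the digit 1 marks MHCC97L replicate 1) with mean ± SD (bars, n = 3). Complex IV shows 3 groups that do not overlap, and the V-ATPase share is lowest in MHCC97L-Oxa.

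The first comparison asked which of these genes differ between saracatinib-resistant and wild-type cells. Of 107 genes tested, 1 fell in MHCC97L-Src at an adjusted p under 0.05 and 0 rose, a share of 0.935% beside 2.13% of all 12037 genes tested. The gene that fell was ATP6V0A4, the kidney-type a4 subunit of the membrane sector of the V-ATPase (GRCh38 chr7:138706294-138799560, minus strand). No gene of complexes I to V passed, and 63 of 83 had a positive log2 fold change. Over all 107 genes the median log2 fold change was 0.26, with 76 positive, against -0.16 and 42.7% positive over all genes tested. A looser rule took genes with p under 0.05 before adjustment and a change of more than 1 log2 unit. By it 8 genes were counted, 2 higher and 6 lower, or 7.48% beside 24.6% of all genes. By the looser rule the share of members counted was thus below the share of all genes, while the adjusted share rested on 1 gene.

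ATP6V0A4 had 59, 42 and 31 counts in wild-type cells against 3, 6 and 7 counts in MHCC97L-Src. The groups did not overlap, and 1 MHCC97L-Src library was at the floor. Its log2 fold change was -2.90 ± 0.53 (SE), with an adjusted p of 0.0325 by edgeR's quasi-likelihood test. The paralogue ATP6V0A2, with 492, 313 and 205 counts in wild-type cells against 194, 91 and 254 in MHCC97L-Src, had overlapping groups. The broadly expressed ATP6V0A1 overlapped as well, with 79.6, 129 and 107 CPM against 126, 116.5 and 117 CPM. The call for ATP6V0A4 was lost without MHCC97L replicate 3 (edgeR adjusted p = 0.0882) and without any 1 of the MHCC97L-Src libraries (edgeR adjusted p = 0.126 to 0.168), and its direction was kept in each of these fits.

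NDUFA4L2, a relative of the complex IV subunit NDUFA4 that is known as a target of hypoxia-inducible factor, stood highest among the positive values. It had 50, 30 and 33 counts in wild-type cells against 148, 143 and 89 in MHCC97L-Src. All 3 resistant libraries were above all wild-type libraries, with a log2 fold change of 1.89 ± 0.47 (SE) and an adjusted p of 0.0814 by edgeR's test, so that it did not pass (GRCh38 chr12:57234903-57240715, minus strand). It passed without MHCC97L replicate 1 (edgeR adjusted p = 0.0283) and without MHCC97L replicate 2 (edgeR adjusted p = 0.0183). It did not pass without MHCC97L replicate 3 or without any 1 of the MHCC97L-Src libraries. NDUFA4 itself had 126, 222 and 206 CPM in wild-type cells against 245, 275 and 233 CPM in MHCC97L-Src, with a log2 fold change of 0.40 ± 0.25 (SE).

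In complex I, which takes electrons from NADH, 10 of 39 genes were higher in all 3 MHCC97L-Src libraries than in all 3 MHCC97L libraries, beside 18.7% of all genes tested, and 2 were lower, beside 11.2%. The median log2 fold change was 0.35 over 32 supernumerary genes and 0.135 over the 7 core genes. These were 0.176 and 0.075 without MHCC97L replicate 1, and 0.512 and 0.277 without replicate 2. With NDUFA4 and NDUFA4L2 counted under complex IV, a choice made after seeing the data, the complex I median was 0.29 and that of complex IV 0.42. NDUFB1, a small membrane-arm subunit, had 37.9, 58.5 and 56.5 CPM in wild-type cells against 80.6, 97.4 and 76.6 CPM in MHCC97L-Src, with a log2 fold change of 0.69 ± 0.26 (SE) that did not pass (edgeR adjusted p = 0.133). NDUFS1, the largest iron-sulfur subunit of the core, had 1476, 144 and 342 counts in wild-type cells against 161, 79 and 255 in MHCC97L-Src. The groups overlapped, the first wild-type library stood above all others, and the log2 fold change was -1.85 ± 0.77 (SE). Without MHCC97L replicate 1 it was not among the genes counted by the unadjusted rule. NDUFS6 had 279, 522 and 473 CPM against 409, 538 and 353 CPM, which overlapped.

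Complexes II and III, which pass electrons from succinate and through ubiquinol to cytochrome c, had no gene that passed. SDHA, the flavoprotein of complex II, had 497, 775 and 707 CPM in wild-type cells against 728, 778 and 711 CPM in MHCC97L-Src, and SDHC, a membrane anchor, was the 1 gene of 4 whose groups did not overlap. In complex III the median was 0.29, with 8 of 10 genes positive, and 3 were higher without overlap (beside 18.7% of all genes), UQCR11, UQCRH and UQCRQ. Without MHCC97L replicate 1 that median was 0.07. UQCR11 had 84.1, 194 and 204 CPM against 238, 337 and 223 CPM, a log2 fold change of 0.69 ± 0.35 (SE). UQCRC2, a core protein, had 162, 40.8 and 48.1 CPM in wild-type cells against 43.9, 26.3 and 56.9 CPM in MHCC97L-Src, where the first wild-type library stood far above the rest.

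Complex IV had the highest class median, 0.42, with 12 of 15 genes positive and 7 higher without overlap (beside 18.7% of all genes). COX7A2L, which helps to join complexes III and IV into supercomplexes, had 147, 289 and 268 CPM in wild-type cells against 410, 526 and 361 CPM in MHCC97L-Src. The groups did not overlap, and the log2 fold change of 0.84 ± 0.29 (SE) had an adjusted p of 0.1215 (edgeR). COX4I1, the regulatory subunit 4, had 226, 438 and 402 CPM against 516, 655 and 460 CPM. COX15, which makes heme A for the complex, was the 1 gene of the class lower without overlap (beside 11.2% of all genes), at 52.4, 38.4 and 28.4 CPM against 23.6, 17.2 and 28.2 CPM. Without MHCC97L replicate 1 the class median was 0.26. With a correction for GC content and gene length it was 0.65, but the median SE of the class rose from 0.288 to 0.448. Over all genes that correction lowered the median SE from 0.413 to 0.266.

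In complex V 11 of 15 genes were positive with a median of 0.27, and 2 were higher without overlap (beside 18.7% of all genes). These were ATP5F1E, with 196, 309 and 280 CPM against 356, 389 and 330 CPM, and ATP5MC3, a gene for the proton-carrying c ring, with 172, 364 and 336 CPM against 430, 537 and 372 CPM. The catalytic beta subunit ATP5F1B, the member with the most counts, had 830, 1541 and 1471 CPM in wild-type cells against 1525, 1622 and 1470 CPM in MHCC97L-Src, which overlapped. ATP5PB, a peripheral stalk subunit, had 194, 67.2 and 69.1 CPM in wild-type cells against 58.9, 40.9 and 70.8 CPM in MHCC97L-Src.

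The V-ATPase was also read by sector. The 9 tested genes of the membrane sector V0 had a median log2 fold change of 0.23, with 6 positive and 3 negative. The 11 of the ATP-splitting sector V1 had a median of -0.59, with 5 positive (45.5%, beside 42.7% of all genes) and 6 negative. ATP6V1A, the catalytic A subunit, had 1722, 188 and 530 counts in wild-type cells against 249, 180 and 268 in MHCC97L-Src, and ATP6V1C1, which links the sectors, had 1109, 118 and 371 against 140, 134 and 124. In both genes the first wild-type library was highest, the third (28.5 and 19.9 CPM) also lay above every MHCC97L-Src library, and the second lay within or below the resistant range. The median GC content was 53.8% for the V0 genes and 45.0% for the V1 genes. The V1 median was -0.17 without MHCC97L replicate 1 and 0.01 with the correction for GC content and length, where the V0 median was 0.07; the part of GC content in the sector difference was not tested beyond these values. The tissue-restricted C subunit ATP6V1C2 had 27, 14 and 12 counts in wild-type cells against 48, 28 and 46 in MHCC97L-Src, higher in all resistant libraries, and it passed with the GC and length correction (adjusted p = 0.0119, edgeR). TCIRG1, the a3 subunit known from osteoclasts, had 39.1, 44.2 and 52.5 CPM against 76.4, 93.4 and 70.6 CPM, a log2 fold change of 0.78 ± 0.25 (SE; edgeR adjusted p = 0.112). Of the pyrophosphatases, which split the pyrophosphate left by biosynthesis, PPA1 had 125, 33.9 and 35.4 CPM against 32.7, 23.5 and 44.7 CPM and overlapped.

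Over the set, 28 of 107 genes (26.2%) were higher in all MHCC97L-Src libraries than in all MHCC97L libraries, beside 18.7% of all genes tested. Lower without overlap were 5 (4.67%), beside 11.2%. Without MHCC97L replicate 2, 8 genes passed at an adjusted p under 0.05 (7.41%, beside 27.8% of all genes), 2 higher (COX7A2L, NDUFA4L2) and 6 lower (ATP6V0A4, ATP6V1A, ATP6V1C1, ATP6V1D, NDUFA5, NDUFS1). With the GC and length correction, 2 passed (1.87%, beside 7.65%), ATP6V0A4 lower and ATP6V1C2 higher.

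**Figure D3:**
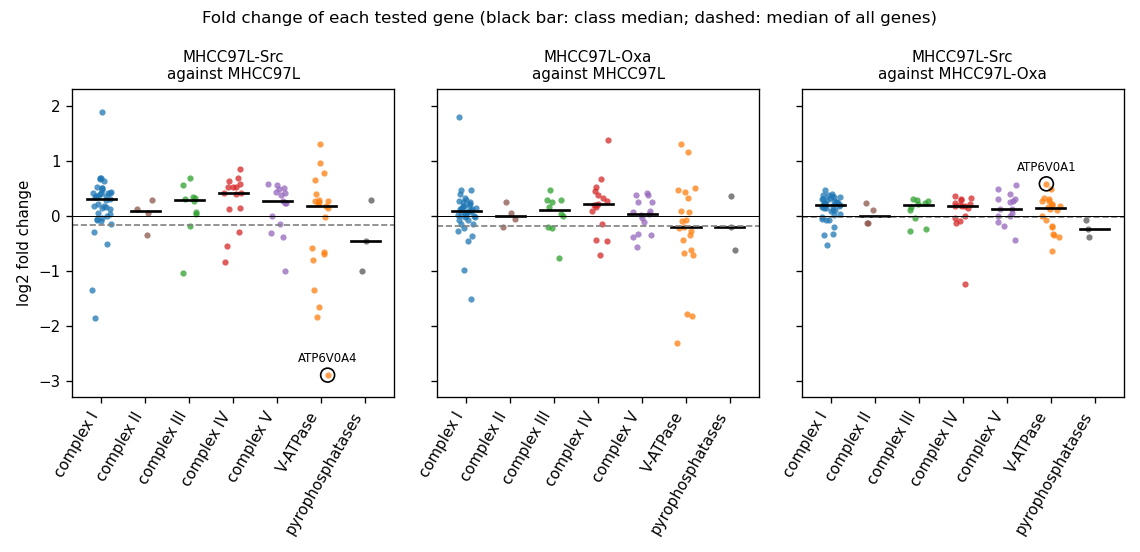
Log2 fold change of each tested member (points) by class in the 3 comparisons, with class medians (black bars), the median of all genes (dashed line) and rings around the members with an adjusted p under 0.05. Most members sit within 1 of 0, complex IV has the highest median of the 5 respiratory complexes in both comparisons with MHCC97L, and the ringed genes are ATP6V0A4 and ATP6V0A1.

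The second comparison set oxaliplatin-resistant against wild-type cells and shares the MHCC97L libraries with the first, so the values of both are given side by side and not as separate support. Of 108 genes tested, 0 passed at an adjusted p under 0.05 by edgeR's test, beside 0.953% of all 12064 genes. With p under 0.05 before adjustment there were 8, beside 22.4% of all genes, and DESeq2's Wald test gave 2, ATP6V0A4 and NDUFA4L2, beside 7.23% of the genes it gave an adjusted p. By the unadjusted rule with a log2 fold change over 1 there were 6 (5.56%, beside 16.2% of all genes), 3 higher (ATP6V1C2, ATP6V1G2, NDUFA4L2) and 3 lower (ATP6V0A4, ATP6V1A, ATP6V1C1). The median log2 fold change was 0.06 against -0.19 over all genes tested, and 64 of 108 were positive.

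The smallest adjusted p belonged to NDUFA4L2 at 0.0758 (edgeR). Its counts in MHCC97L-Oxa were 122, 131 and 134, all above the 50, 30 and 33 of MHCC97L, with a log2 fold change of 1.79 ± 0.38 (SE). ATP6V0A4 had 14, 6 and 6 counts in MHCC97L-Oxa, all below MHCC97L, with a log2 fold change of -2.31 ± 0.51 (SE) and an adjusted p of 0.0843. In both resistant lines these genes thus lay on the same side of the same wild-type libraries.

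Complex IV again had the highest median of the respiratory complexes at 0.21, with 12 of 16 genes positive and 7 higher without overlap (beside 19.6% of all genes). COX7A2L had 362, 404 and 388 CPM in MHCC97L-Oxa against the 147, 289 and 268 CPM of MHCC97L, with a log2 fold change of 0.66 ± 0.26 (SE; edgeR adjusted p = 0.209). COX6B2, the testis form of subunit 6B, had 17, 12 and 20 counts against 12, 6 and 1, higher in CPM without overlap (log2 fold change 1.37 ± 0.68 SE, edgeR adjusted p = 0.252). Medians were 0.095 for complex I, -0.01 for complex II, 0.10 for complex III and 0.02 for complex V. For the V-ATPase the median was -0.21. Complex IV was not highest without MHCC97L replicate 1 (0.135, against 0.15 for complex III) or with the GC and length correction (0.325, against 0.336 for complex II). The class medians moved with single libraries, to 0.019 for complex I and -0.075 for the V-ATPase without MHCC97L replicate 1, and to 0.223 and 0.002 without replicate 2, while the median of all genes moved from -0.19 to 0.001 and -0.07.

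All 3 MHCC97L-Oxa libraries were above all MHCC97L libraries in 25 genes (23.1%, beside 19.6% of all genes) and below in 4 (3.70%, beside 8.42%), which were ATP6V0A4, COX10, NDUFA9 and NDUFV3. The count of members that passed depended most on MHCC97L replicate 1. Without it, 23 passed (21.3%, beside 18.5% of all genes), 15 higher and 8 lower. The higher ones included COX7A2L (0.52 ± 0.07 SE), COX7C (0.42 ± 0.06), ATP5PO, the stalk subunit OSCP (0.49 ± 0.09), and NDUFS4, an accessory subunit of complex I (0.67 ± 0.16). The lower ones included ATP5MF (-0.48 ± 0.09), a membrane subunit of ATP synthase, and NDUFB10 (-0.355 ± 0.062). SDHD, a membrane anchor of complex II, went from -0.21 to 0.56 and passed there (adjusted p = 0.0411, edgeR). Without MHCC97L replicate 2, 5 passed (4.63%, beside 22.1%), and with the GC and length correction 6 passed (5.56%, beside 8.79%), ATP6V1C2 higher and ATP5MF, ATP6V0A4, ATP6V0C, NDUFB10 and NDUFS6 lower.

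The third comparison set the resistant lines against each other and does not use the wild-type libraries. Of 107 genes tested, 1 rose in MHCC97L-Src relative to MHCC97L-Oxa at an adjusted p under 0.05 and 0 fell, or 0.935% beside 4.64% of all 11994 genes. This was ATP6V0A1, the broadly expressed a1 subunit of the V-ATPase (GRCh38 chr17:42458844-42522611, plus strand). By the unadjusted rule 1 gene was counted (0.935%, beside 4.01%), COX6B2, lower in MHCC97L-Src. The median log2 fold change was 0.17 against -0.02 over all genes, and 74 of 107 (69.2%) were positive beside 48.1% of all genes. MHCC97L-Src libraries were higher without overlap in 24 genes (22.4%, beside 13.3%) and lower in 5 (4.67%, beside 13.1%).

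ATP6V0A1 had 2127, 1761 and 2125 counts in MHCC97L-Src against 1504, 1445 and 1377 in MHCC97L-Oxa, without overlap. The log2 fold change was 0.58 ± 0.11 (SE) with an adjusted p of 0.0133 by edgeR's test. The 1612, 2200 and 1996 counts of MHCC97L, or 79.6, 129 and 107 CPM, overlapped both resistant lines in CPM, which lay at 116.5 to 126 CPM and 78.05 to 83.9 CPM. The adjusted p ran from 0.0016 to 0.141 when single libraries were left out, and the call was lost without MHCC97L-Src replicate 1 and without each MHCC97L-Oxa replicate. ATP6V0C pointed the same way, with 499, 628 and 409 CPM against 361, 362 and 380 CPM (log2 fold change 0.48 ± 0.14 SE, edgeR adjusted p = 0.0914).

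Among the respiratory complexes, 31 of 39 complex I genes and 11 of 15 complex V genes had positive values, and the medians were 0.19 for complexes I and III, -0.01 for complex II, 0.18 for complex IV and 0.12 for complex V. Without MHCC97L-Src replicate 2 the medians of complexes I, III and IV were 0.07, 0.09 and 0.09, while those of complexes II and V were 0.13 and 0.12. ATP5MC3 had 430, 537 and 372 CPM in MHCC97L-Src against 330, 314 and 316 CPM in MHCC97L-Oxa (log2 fold change 0.48 ± 0.13 SE, edgeR adjusted p = 0.0688). ATP5MF had 82.4, 88.5 and 60.5 CPM against 54.3, 48.5 and 54.0 CPM (0.57 ± 0.15 SE, edgeR adjusted p = 0.0669). NDUFC1, a small complex I subunit, had a value of 0.38 with an adjusted p of 0.0896. Every one of these genes was higher in all MHCC97L-Src libraries, and none passed. NDUFS4 lay the other way, at 11.7, 12.7 and 15.9 CPM in MHCC97L-Src against 18.4, 21.7 and 18.3 CPM in MHCC97L-Oxa.

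The MHCC97L-Src libraries differed in how far they lay from MHCC97L-Oxa. Without MHCC97L-Src replicate 3, 27 members passed (25.2%, beside 13.3% of all genes), 21 higher and 6 lower, and the median was 0.25. The 21 comprised 7 genes of complex I, among them NDUFA11 (0.64) and NDUFA13 (0.56), 2 of complex III, 3 of complex IV, 5 of complex V, among them ATP5MF (0.72), and 4 of the V-ATPase (ATP6AP1, ATP6V0A1, ATP6V0C and ATP6V0D1). The 6 lower were ATP5PB, ATP6V1D, ATP6V1E1, ATP6V1G1, NDUFS4 and PPA1. Without MHCC97L-Src replicate 2, 2 passed (beside 8.51% of all genes), ATP5MC3 and ATP6V0A1, and the median was 0.08. With the GC and length correction, 3 passed (2.80%, beside 7.34%), ATP5MF, ATP6V0A1 and ATP6V0C, all higher, and 91 of 107 members (85.0%) were positive beside 61.8% of all genes. Of the markers of other cell types, the fibroblast gene DCN and the macrophage gene CD68 were lower in MHCC97L-Src than in MHCC97L-Oxa (edgeR adjusted p = 0.0029 and 0.0116), while the keratins KRT18 and KRT8 were higher (0.0047 and 0.0136). The 5 fibroblast markers summed to 79.0 to 88.2 CPM in MHCC97L-Src, 138 to 153 CPM in MHCC97L-Oxa and 103 to 176 CPM in MHCC97L, with COL1A2 at or under the floor. The 5 leukocyte markers summed to 70.2 to 102 CPM, 146 to 149 CPM and 43.3 to 77.2 CPM in that order, with PTPRC, CD3E and LYZ at or under the floor. The part of these markers in the values of the members was not tested.

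**Figure D4:**
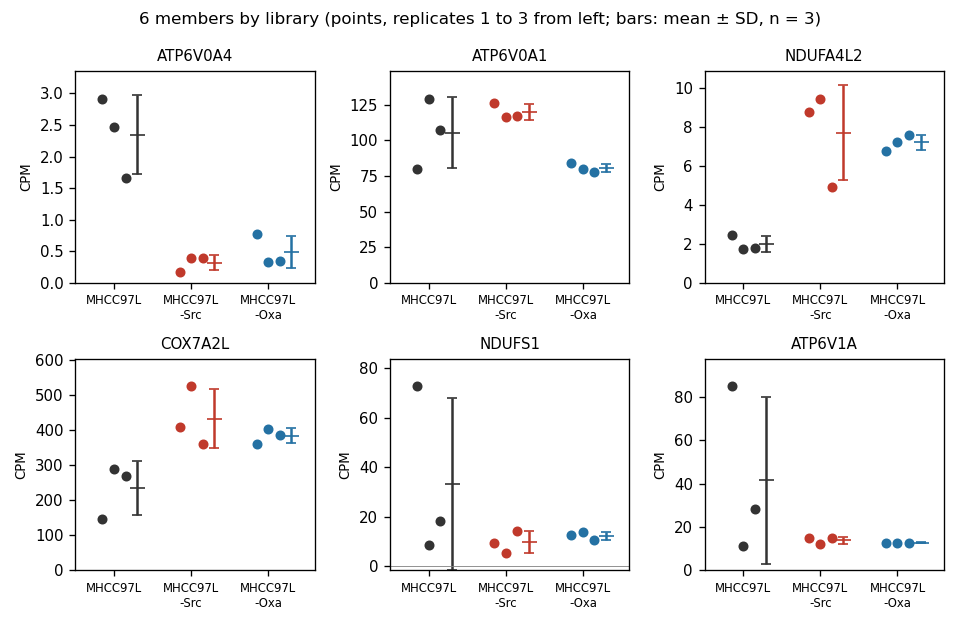
CPM (y axes, linear) of 6 members in the libraries of each line (points, replicate 1 to 3 from left) with mean ± SD (bars, n = 3; lower ends of bars may pass 0). ATP6V0A4 is low and NDUFA4L2 high in both resistant lines, and ATP6V0A1 separates the resistant lines. In NDUFS1 and ATP6V1A the wild-type replicate 1 is highest by far, and replicate 3 also lies above every resistant library.

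In MHCC97L replicate 1, 9 of 108 members (8.33%, beside 25.9% of all genes) had at least 2 times the CPM of both other MHCC97L libraries. These were NDUFS1, NDUFA5, SDHD, UQCRC2, ATP5PB, ATP6V1A, ATP6V1C1, ATP6V1D and PPA1. A further 13 members of the 108 (beside 4.23% of all genes) had at most 0.5 times the CPM of both others, among them NDUFB7, NDUFA13, COX5B, COX6B1, UQCR11 and CYC1. The members are shorter than most genes, with a median length of 1800 bases beside 3673, and their median GC content was 47.5% beside 49.2%. Among members the difference between replicate 1 and the others ran with GC content at a Spearman rho of -0.534 (n = 108 genes that share these libraries), and the 9 high members had a median GC content of 41.0%.

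Of the 6 members counted as lower in MHCC97L-Src by the unadjusted rule, 5 were among these 9. Without MHCC97L replicate 1 the lower members numbered 1, ATP6V0A4, and the higher members 2. With the GC and length correction the lower members again numbered 1, ATP6V0A4, while the higher members numbered 7 (ATP6V1C2, ATP6V1G2, COX7A2, COX7A2L, NDUFA4L2, NDUFB1 and NDUFC2). The 9 and the 13 members were chosen by their level in replicate 1. By that choice, leaving it out pushes the values of the 9 up and those of the 13 down, and is no test of its part. Over all members the median in MHCC97L-Src was 0.095 without replicate 1, against -0.04 over all genes, and 0.28 with the correction, against 0.025 over all genes.

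**Figure D5:**
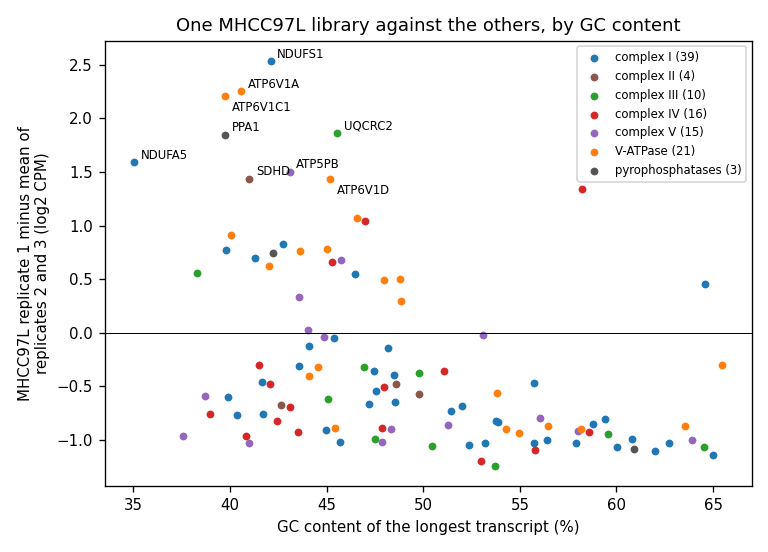
Log2 CPM of MHCC97L replicate 1 minus the mean of MHCC97L replicates 2 and 3 (y axis) against GC content of the longest transcript (x axis, percent) for 108 members, coloured by class. The 9 labelled members lie at low GC content and high difference, and most members above 50% GC lie below 0.

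Genes that build or feed the respiratory chain were read off the same fits from lists outside the KEGG term. Of 43 assembly factors, which put the complexes together, 42 were tested and 0 passed in each of the 3 comparisons, with medians of -0.17 in MHCC97L-Src and -0.21 in MHCC97L-Oxa against MHCC97L, near those of all genes, and 0, 1 and 2 genes with p under 0.05 before adjustment, beside 29.5%, 22.4% and 19.5% of all genes. Of 15 regulators of mitochondrial biogenesis 0 passed in each comparison (3, 3 and 5 with p under 0.05 before adjustment), with medians of -0.465 and -0.485. TFAM, which packages and transcribes mitochondrial DNA, had 1251, 125 and 339 counts in wild-type cells, against 101, 94 and 175 in MHCC97L-Src, while MHCC97L-Oxa had 124, 185 and 149, where the wild-type library with the high value was again replicate 1. Of 17 electron carriers, coenzyme Q genes and uncouplers, 1 passed (beside 4.64% of all genes), UCP2, a mitochondrial carrier of the uncoupling protein family, which rose in MHCC97L-Src relative to MHCC97L-Oxa (1470, 1518 and 1365 counts against 1050, 965 and 1056, log2 fold change 0.62 ± 0.13 SE, edgeR adjusted p = 0.0285), while its MHCC97L counts were 846, 1345 and 1380. COQ8A, needed to make coenzyme Q, had 2514, 2992 and 2509 counts in MHCC97L-Src against 791, 1323 and 1426 in MHCC97L, without overlap (log2 fold change 1.29 ± 0.31 SE, edgeR adjusted p = 0.0769).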

How the data were processed

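RNA of 3 libraries from each of MHCC97L, MHCC97L-Src and MHCC97L-Oxa was analysed from 2 tables of 20030 genes. The authors deposited raw read counts per gene and, separately, FPKM values, which scale reads to gene length and library size. The FPKM values are not a plain rescaling of the deposited counts. NDUFC2-KCTD14, for example, had 0 counts in every library but a mean of 8.98 FPKM in MHCC97L. The submitters' processing notes name Trimmomatic 0.36, HISAT2 2.2.1.0 and GRCh38.p12, and the counting program is not given in the sources used here. Libraries were grouped by their labels, and 0 value columns were left unassigned to a library. Each library held 16970486 to 18209213 counted reads, and a floor of 3 counts was taken as the limit of detection, which covers counting error only.

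Each pair of lines was fitted on all genes with edgeR 4.0.16 in R 4.3.3 (filterByExpr with a minimum count of 10, TMM scaling, quasi-likelihood test), with Benjamini-Hochberg adjustment over all genes tested and a threshold of 0.05. A looser rule took genes with p under 0.05 before adjustment that changed by more than 1 log2 unit. Log2 CPM used a prior count of 2. Non-overlap meant that all 3 libraries of one line lay above or below all 3 of the other. Alternatives were DESeq2 1.42.0, its size factors, no filter, 10 counts in every library, a replicate block, all 9 libraries in one fit, limma 3.58.1 on log2(FPKM + 1) and log2(FPKM + 0.1), a correction for GC content and gene length (splines with 5 degrees of freedom each, GENCODE 29 transcripts), that correction with the block, and leaving out each library. The fitting steps were tested on simulated data. Tables and plots were made with Python 3.11.15, pandas 2.3.3 and matplotlib 3.10.9.

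The members and gene lists were chosen with earlier results of these data known. Genes named by rule were the 2 members with most CPM in each class, the largest rise and fall per class against MHCC97L, members with an adjusted p under 0.05, members that failed the filter, paralogue pairs, and up to 4 genes of each other list. Other genes were named after their values were seen.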

Additional observations from a re-analysis of the deposited data

Results flagged for a closer look

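ATP6V0A1, the a1 subunit of the V-ATPase membrane sector, stood out because the resistant lines, compared with each other directly, differed past the threshold. The log2 fold change of MHCC97L-Src over MHCC97L-Oxa was 0.58 ± 0.11 (SE), with all 3 MHCC97L-Src libraries above all 3 MHCC97L-Oxa libraries (edgeR adjusted p = 0.0133). The call was lost with all 9 libraries in one fit (edgeR adjusted p = 0.34), with the replicate block (0.0506), without MHCC97L-Src replicate 1 (0.141) and without each MHCC97L-Oxa replicate (0.0696 to 0.1175). Against MHCC97L neither resistant line passed, at 0.15 ± 0.24 (SE) for MHCC97L-Src and -0.43 ± 0.22 (SE) for MHCC97L-Oxa.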

How the results depend on the processing

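Members with an adjusted p under 0.05 in MHCC97L-Src against MHCC97L (1 in the report) numbered 4 with DESeq2, 2 with no filter, 0 with 10 counts in every library, 5 with all 9 libraries in one fit, 0 with limma on log2(FPKM + 1), 2 with the GC and length correction and 2 with that correction and the replicate block, and 0 to 8 when single libraries were left out. By the unadjusted rule (8) they numbered 2 and 3 with limma on log2(FPKM + 1) and log2(FPKM + 0.1), 20 with the correction and block, and 3 to 12 without single libraries, where the median ran from 0.095 to 0.41. In MHCC97L-Oxa against MHCC97L (0) the adjusted count was 2 with DESeq2, 2 with all 9 libraries, 1 with limma at either pseudocount, 6 with the GC and length correction and 0 to 23 without single libraries. The unadjusted count (6) was 1 and 2 with limma and 3 to 8 without single libraries, and the median ran from 0.056 to 0.221. Between the resistant lines (1) the adjusted count was 3 with DESeq2, 0 with all 9 libraries, 2 with limma on log2(FPKM + 1), 3 with the GC and length correction and 0 to 27 without single libraries. The unadjusted count (1) was 0 with DESeq2, with 10 counts in every library, with all 9 libraries and with limma, and 0 to 1 without single libraries. The median (0.17) was 0.085 and 0.097 with limma, 0.24 with the correction and 0.081 to 0.25 without single libraries. SDHD in MHCC97L-Oxa ran from -0.472 to 0.557 without single libraries, and its direction reversed without MHCC97L replicate 1. Where not stated otherwise, the cause was not tested.

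With the replicate block the adjusted counts were 1, 0 and 0, and ATP6V0A1 had an edgeR adjusted p of 0.0506. The replicate numbers were not taken to pair the libraries, since deviations of libraries with the same number correlated at 0.171, 0.217 and -0.65 (MHCC97L-Src and MHCC97L), -0.215, -0.134 and 0.444 (MHCC97L-Oxa and MHCC97L) and 0.0305, -0.0851 and -0.292 (resistant lines). Of 2026 values of named members recomputed, 1832 kept their sign and their side of the threshold, and 130 changed sign with no call in either fit, 80 of them by less than 1 standard error. The spread of MHCC97L and 3 libraries a line limit what could be called, with a median standard error of member log2 fold changes of 0.303, 0.267 and 0.143 in the 3 comparisons.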

Other observations

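The tricarboxylic acid cycle, which supplies NADH and succinate to the respiratory chain, had 13 of 13 genes tested and 0 called in each comparison (4, 5 and 2 with p under 0.05 before adjustment by edgeR, beside 29.5%, 22.4% and 19.5% of all genes), with medians of -0.41 in MHCC97L-Src and -0.56 in MHCC97L-Oxa against the shared MHCC97L libraries. OGDH, a subunit of the oxoglutarate dehydrogenase complex, had 4311, 6793 and 7324 counts in wild-type cells against 3270, 3300 and 3012 in MHCC97L-Src, with MHCC97L-Oxa at 3068, 2843 and 3006. This gene was chosen after its values were seen. MHCC97L replicate 1 had the lowest of the wild-type counts, and the log2 fold changes were -0.84 ± 0.28 (SE) and -1.06 ± 0.26 (SE), with edgeR adjusted p of 0.116 and 0.112.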
